A study of Mus musculus with 6 samples.

Results

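The genes described here encode 9 proteins with which liver makes glucose and handles glycogen: Pck1, G6pc, Fbp1, Pcx, Gckr, Gys2, Pygl, Ppp1r3b and Ppp1r3c. They were chosen by name, as rows whose symbol equals a member of that list, and all 9 were found among the 23291 genes of each table. RNA sequencing was done on total RNA from snap frozen livers of C57BL/6 mice. The design text speaks of 3 mice per group and the labels give neither their age nor their sex, feeding state or hour of collection. The diet group ate a high fat diet, called Western diet in the sample titles, for 3 months. The dabigatran group ate the same diet for 3 months with 10 mg/g dabigatran etexilate added, so both groups share the diet and no mice on ordinary chow are compared here. Dabigatran etexilate is an oral prodrug of dabigatran, a direct inhibitor of the clotting protease thrombin.

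Liver keeps blood glucose up between meals by releasing it from glycogen and by building it from lactate, glycerol and amino acids. Starting from pyruvate, pyruvate carboxylase and phosphoenolpyruvate carboxykinase carry out the first steps of that synthesis. Fructose-1,6-bisphosphatase acts further on, and glucose-6-phosphatase frees the sugar in the last step, which glycogen breakdown shares. Glucagon, glucocorticoids and fasting raise transcription of Pck1 and G6pc, and insulin lowers it. Glycogen is lengthened by glycogen synthase and shortened by glycogen phosphorylase, and protein phosphatase 1, brought to the glycogen particle by targeting subunits, activates the former and inactivates the latter.

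None of the 9 genes passed the test between the groups (limma, adjusted p under 0.05 over the 10247 genes tested), where 0.127% of all tested genes were called higher with dabigatran and 0.303% lower, 0.429% in all. The nearest to the threshold was Ppp1r3b, for the glycogen-targeting subunit GL, at 12.2 ± 1.31 FPKM (SD, n = 3) with diet and 34.0 ± 16.7 (SD, n = 2) with dabigatran, a 2.56-fold higher fitted level (adjusted p = 0.0892). At an unadjusted p under 0.05, 1 of the 9 was higher with dabigatran (Ppp1r3b) and 2 were lower (Gckr and Ppp1r3c), beside 6.87% and 9.13% of all tested genes (16.0% in either direction). A voom fit on whole fragments, which held 7 of the 9, also called none, with the same counts of 1 and 2 at an unadjusted p under 0.05. The 2 groups did not overlap in Ppp1r3b, higher, and in Gckr, lower, and 17.2% of all tested genes did not overlap in each direction (34.4% in either). The median log2 difference of the 9 genes was -0.10, beside 0.02 over all tested genes.

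Dabigatran replicates 0 and 1 have the same deposited values in each of the 23291 genes, and the replicate number inside both tables is 1. They were counted once, as dabigatran replicate 1, which leaves 3 diet and 2 dabigatran libraries. Values are FPKM, sequenced fragments scaled for gene length and for the library's mapped fragments, so levels can be set beside each other between genes. Depth relative to diet replicate 0 ranged from 0.761 to 0.967 in the other libraries. For 7 of the 9 genes whole fragment numbers could be read from the FPKM steps, from 41 to 1480 a gene and library, and numbers for Pck1 and Pcx could not. All 6 hepatocyte markers were at 1 FPKM or more in every library, with summed levels of 31756 to 35300 FPKM with diet and of 34502 and 48322 with dabigatran. Alb made up most of each sum, and the markers did not move together. Apoa1 was at 3443 to 5660 FPKM with diet and 7630 and 10688 with dabigatran, and Ttr at 1849 to 2945 and at 1707 and 1518. Defining markers of kidney tubule, another glucose-making tissue, were at or near 0, with 4 of 5 listed at 0 in every library and 0.0258 to 0.151 FPKM in sum. Markers of bile duct cells, of which 1 of 5 reached 1 FPKM in every library, summed to 32.8 to 51.9 FPKM with diet, 38.9 in dabigatran replicate 1 and 11.1 in dabigatran replicate 2. Most of that sum was Spp1, at 31.2 to 49.4 FPKM with diet and 35.3 and 9.54 with dabigatran. Krt19, Krt7, Epcam and Sox9 were at 2.07 FPKM or less throughout. Neutrophil markers, of which 1 of 4 reached 1 FPKM in every library, summed to 2.07 to 19.1 FPKM with diet and to 42.6 and 1.84 with dabigatran, and adipocyte markers, with Lep and Plin1 at 0 throughout, to 28.3 to 151 with diet, almost all of it Cfd, and to 0 with dabigatran. The part of these differences in the results was not tested. In whole liver, fewer cells of a type and less RNA per cell cannot be told apart. P-values measure the spread between these libraries, since only the word mice says that they come from separate animals.

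**Figure D1:**
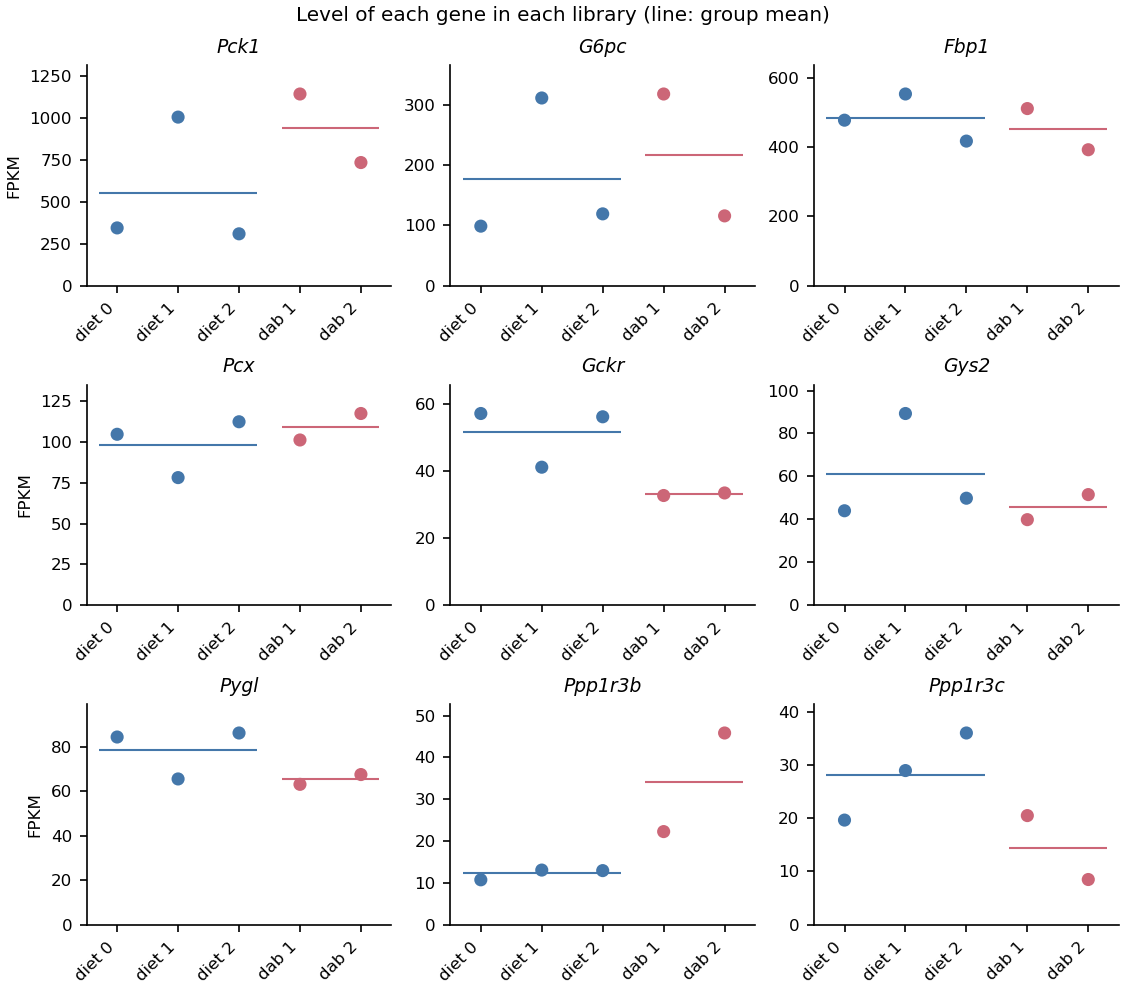
FPKM of the 9 genes (vertical axes, each from 0) in the 3 diet libraries (blue) and the 2 dabigatran libraries (red, dab), with 1 point per library and a line at each group mean. Ppp1r3b lies between 10.7 and 13.0 FPKM with diet and at 22.2 and 45.8 with dabigatran, while diet replicate 1 stands high for Pck1, G6pc and Gys2.

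Of the gluconeogenic enzymes, Pck1 had the highest mean level of the 9 genes in both groups. Pck1 (ENSMUSG00000027513.11, chromosome 2, 173153048 to 173159273 on the plus strand of GRCm38) encodes cytosolic phosphoenolpyruvate carboxykinase. It had 345, 1007 and 309 FPKM in diet replicates 0, 1 and 2, and 1145 and 735 in dabigatran replicates 1 and 2. Diet replicate 1 lay between the dabigatran libraries and the other diet libraries lay below both, so the groups overlapped. The fitted level was 1.93-fold higher with dabigatran (log2 difference 0.95 ± 0.48, SE, 95% interval -0.16 to 2.06, limma adjusted p = 0.381). Without diet replicate 1 the log2 difference of Pck1 was 1.49 and passed the threshold (limma adjusted p = 0.0245), and over the 13 alternative analyses that could fit the gene the adjusted p ranged from 0.0245 to 0.673. That library was the highest of the diet group for Pck1, so leaving it out had to widen the difference. Over all genes, 95 were called higher and 199 lower without it, against 13 and 31 with all libraries. Other values given below without diet replicate 1 come from the same fit.

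The sequence before the Pck1 start is shown because its promoter is a textbook target of cAMP signalling, with CGTCA, the core of the cAMP response element, in capitals. The stretch comes from RefSeq (GRCm38.p6, chr2:173152823-173153047, plus strand, 225 bases, 5′ to 3′) and stops where the first annotated exon begins, which leaves out the last 25 bases before the RefSeq start.
Pck1: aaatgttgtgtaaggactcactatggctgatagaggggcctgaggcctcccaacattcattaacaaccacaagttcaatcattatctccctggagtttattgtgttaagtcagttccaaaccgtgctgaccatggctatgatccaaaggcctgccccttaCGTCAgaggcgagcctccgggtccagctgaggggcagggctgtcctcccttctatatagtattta
The motif lies at bases -90 to -86 from the RefSeq start on the plus strand of the gene. On either strand, CGTCA occurs in the 250 bases before 17.8% of 32851 RefSeq starts, so a match is common and describes the letters only. Promoters of 7 of the 9 genes matched in the RefSeq table, in 8 entries (Pcx has 2), and those of Gys2 and Ppp1r3b did not. CGTCA was found in 2 of these 7 (Pck1 and Pygl), the E-box CACGTG in 2 (Pcx and Ppp1r3c, 6.02% of all) and the TATA box TATAAA in G6pc (12.4% of all). The full element TGACGTCA, the forkhead motif GTAAACA and the palindromic motifs of the glucocorticoid receptor and of HNF1, searched on both strands, were in none of the 7 and in 1.55%, 3.17%, 0.00913% and 0.00913% of all. CGTCA is part of TGACGTCA, so matches of these motifs can overlap.

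G6pc varied between libraries in a pattern like that of Pck1 except in dabigatran replicate 2. G6pc (ENSMUSG00000078650.2, chromosome 11, 101367561 to 101377903, plus strand) encodes the catalytic subunit of glucose-6-phosphatase, which sits in the endoplasmic reticulum. In diet replicates 0, 1 and 2 it measured 98.8, 312 and 119 FPKM, and in dabigatran replicates 1 and 2 it measured 318 and 116. One library of each group was high and the others were low, and these 5 values rest on 462 to 1409 fragments. The log2 difference was 0.32 ± 0.55 (SE, 95% interval -0.94 to 1.57, limma adjusted p = 0.818), an interval that spans sizeable differences in both directions. It was -0.41 without dabigatran replicate 1 and 1.04 without dabigatran replicate 2, each based on 1 dabigatran library assumed to vary like the others.

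Fbp1 and Pcx differed little between groups. Fbp1 (ENSMUSG00000069805.10, chromosome 13, 62864753 to 62888282, minus strand) encodes liver fructose-1,6-bisphosphatase and had 477, 553 and 417 FPKM with diet and 511 and 392 with dabigatran, with a log2 difference of -0.10 (95% interval -0.57 to 0.37). Pcx (ENSMUSG00000024892.17, chromosome 19, 4510472 to 4621752, plus strand) encodes pyruvate carboxylase, the mitochondrial enzyme that makes oxaloacetate. It had 105, 78.2 and 112 FPKM with diet and 101 and 118 with dabigatran, with a log2 difference of 0.16 (95% interval -0.31 to 0.64). In both genes the groups overlapped, and limma's adjusted p was 0.851 for Fbp1 and 0.738 for Pcx. Fbp1 spanned 1.41-fold and Pcx 1.5-fold between the lowest and highest of the 5 libraries, against 3.70-fold for Pck1 and 3.22-fold for G6pc.

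Gckr encodes a regulatory protein of liver sugar metabolism. Gckr (ENSMUSG00000059434.9, chromosome 5, 31297443 to 31327314, plus strand) had 57.0, 41.0 and 56.1 FPKM in diet replicates 0, 1 and 2, and 32.6 and 33.4 in dabigatran replicates 1 and 2. Both dabigatran libraries lay below every diet library, the lowest diet value again being that of replicate 1. The log2 difference was -0.62 ± 0.20 (SE, 95% interval -1.08 to -0.15), a level 1.53-fold higher with diet, and did not pass over all genes (limma adjusted p = 0.203). Across the 14 alternative analyses it stayed between -0.77 and -0.53, with adjusted p from 0.0604 to 0.512.

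Gys2 and Pygl, the liver isoforms that build and break down glycogen, overlapped between the groups. Gys2 (ENSMUSG00000030244.7, chromosome 6, 142422613 to 142473109, minus strand), for glycogen synthase, had 44.0, 89.3 and 49.8 FPKM with diet and 39.8 and 51.5 with dabigatran. Diet replicate 1 stood apart at the top and the remaining 4 values lay within 39.8 to 51.5 FPKM. The log2 difference of Gys2 was -0.35 ± 0.30 (SE, limma adjusted p = 0.605), and it was -0.05 without diet replicate 1. Pygl (ENSMUSG00000021069.17, chromosome 12, 70190811 to 70231488, minus strand), for glycogen phosphorylase, had 84.5, 65.6 and 86.4 FPKM with diet and 63.2 and 67.6 with dabigatran. Its diet replicate 1 lay between the dabigatran libraries and below the other diet libraries, opposite in direction to Gys2, with a log2 difference of -0.26 ± 0.19 (SE, limma adjusted p = 0.540).

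The genes for the 2 targeting subunits differed between the groups in opposite directions, though neither passed over all genes. Ppp1r3b (ENSMUSG00000046794.9, chromosome 8, 35375739 to 35388139, plus strand) encodes GL, the subunit typical of liver, through which phosphorylase a restrains glycogen synthase activation. It had 10.7, 13.0 and 12.9 FPKM in diet replicates 0, 1 and 2, on 101 to 127 fragments each. In dabigatran replicates 1 and 2 it had 22.2 and 45.8 FPKM, on 194 and 360 fragments, so both lay above every diet library and also well apart from each other. The log2 difference was 1.36 ± 0.30 (SE, 95% interval 0.67 to 2.04). Without dabigatran replicate 1 it was 1.87 and passed (limma adjusted p = 0.0192), without dabigatran replicate 2 it was 0.84 (adjusted p = 0.335), and over the 14 alternatives the adjusted p ranged from 0.0192 to 0.335. With 1 dabigatran library left, the spread comes from the diet libraries and from limma's trend over all genes, and the lone library is assumed to vary alike, so that pass has no replicate check in the dabigatran group.

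Ppp1r3c (ENSMUSG00000067279.3, chromosome 19, 36731731 to 36736653, minus strand) encodes PTG, protein targeting to glycogen, which is made in many tissues. In diet replicates 0, 1 and 2 it measured 19.7, 29.0 and 36.0 FPKM, and in dabigatran replicates 1 and 2 it measured 20.5 and 8.48. Dabigatran replicate 1 lay within the diet range, and dabigatran replicate 2, on 41 fragments against 110 to 218 in the others, lay below it. The log2 difference was -1.02 ± 0.38 (SE, 95% interval -1.90 to -0.14, limma adjusted p = 0.252). It was -0.41 without dabigatran replicate 2 and -1.63 without dabigatran replicate 1 (adjusted p = 0.766 and 0.0571, each with a lone dabigatran library as for Ppp1r3b), so its size rests on a single library. The bile duct marker sum, mostly Spp1, was lowest in the same library, as given above. Of the low bile duct markers, Sox9 (0.908 FPKM) and Epcam (0.276) were also lowest there, close to diet replicate 1 (0.921 and 0.280). Krt19 was at 0 there and in diet replicates 1 and 2. Krt7 was not lower there (0.371 FPKM, against 0.286 to 0.376 with diet). The part of bile duct cells in the value was not tested.

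The sequence before the Ppp1r3c start is shown because it holds the E-box CACGTG, a letter string also found within carbohydrate response elements, in capitals at bases -104 to -99 from the RefSeq start. It is taken from RefSeq (GRCm38.p6, chr19:36736654-36736854, minus strand, 201 bases, 5′ to 3′ along the gene). The stretch stops where the first annotated exon begins, which leaves out the last 49 bases before the RefSeq start.
Ppp1r3c: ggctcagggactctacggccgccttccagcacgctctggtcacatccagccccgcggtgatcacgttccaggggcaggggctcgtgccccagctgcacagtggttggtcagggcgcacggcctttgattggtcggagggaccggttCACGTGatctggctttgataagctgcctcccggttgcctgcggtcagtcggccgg
No binding data accompany these libraries, so the string stands as a description of the sequence.

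Set in order of their level, the 9 genes ran from Pck1 (554 ± 393 FPKM, SD, n = 3) and Fbp1 (482 ± 68.0) at the top of the diet group to Ppp1r3c (28.2 ± 8.22) and Ppp1r3b (12.2 ± 1.31) at its foot. In between came G6pc (177 ± 117), Pcx (98.5 ± 18.0), Pygl (78.8 ± 11.5), Gys2 (61.0 ± 24.7) and Gckr (51.4 ± 8.96). Of the neighbours in that order, Fbp1 and G6pc, Gckr and Ppp1r3c, and Ppp1r3c and Ppp1r3b had ranges that did not overlap, and the ranges of the other 5 neighbouring pairs did. With dabigatran the first 6 places were unchanged and Ppp1r3b (34.0 ± 16.7 FPKM, SD, n = 2) stood above Gckr (33.0 ± 0.536) and Ppp1r3c (14.5 ± 8.50), although the range of Ppp1r3b included that of Gckr. The ranges of Ppp1r3b and Ppp1r3c were thus apart in both groups, with Ppp1r3c higher in each diet library and Ppp1r3b higher in each dabigatran library.

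Diet replicate 1 differed from the other diet libraries more for Pck1 and G6pc than for most genes. Its level, relative to the mean of diet replicates 0 and 2 on the log2 scale, was 3.08-fold higher for Pck1, 2.86-fold higher for G6pc and 1.90-fold higher for Gys2. A 2-fold departure in either direction, which Pck1 and G6pc pass, was seen in 5.56% of all tested genes. Igfbp1, an insulin-repressed and fasting-induced gene for a secreted IGF binding protein, had 10.5, 105 and 15.6 FPKM in diet replicates 0, 1 and 2 and 211 and 116 with dabigatran. Dabigatran replicate 1, like diet replicate 1, was high for Pck1, G6pc and Igfbp1, while dabigatran replicate 2 was high for Pck1 and Igfbp1 and low for G6pc. The part of feeding state or hour of collection, which the sources used here do not give, was not tested.

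**Figure D2:**
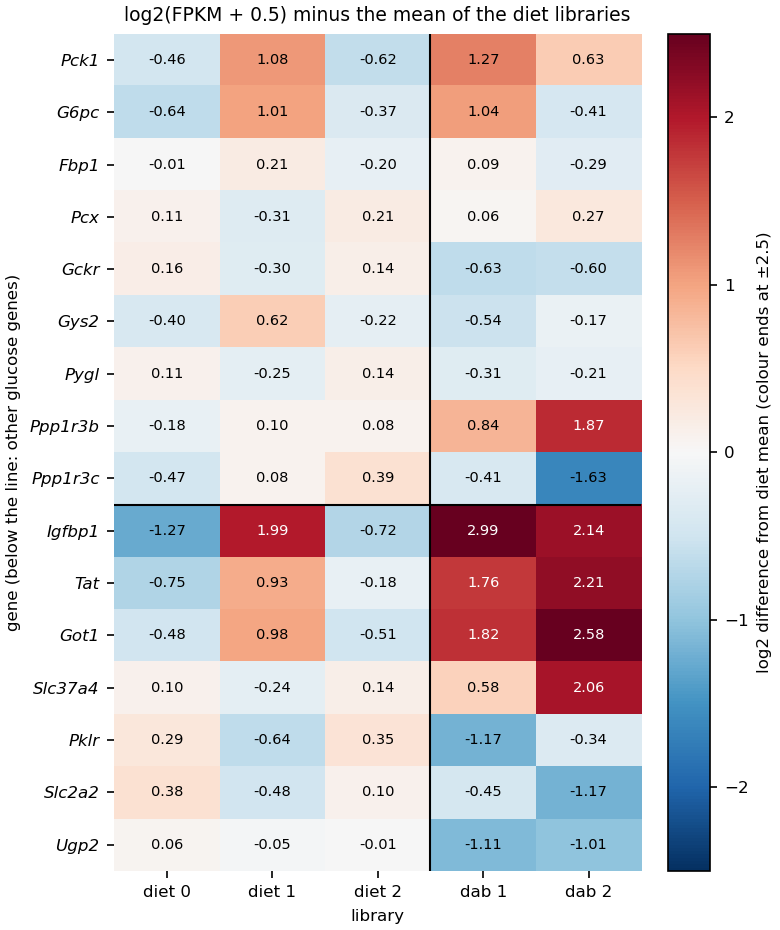
log2(FPKM + 0.5) of each gene in each library minus the mean of the 3 diet libraries, in colour and as printed values, for the 9 genes (above the line) and 7 other genes named in the text (below it). Diet replicate 1 lies at 1.08 for Pck1 and 1.01 for G6pc, whereas Ugp2 is near 0 in all diet libraries and at -1.11 and -1.01 in the dabigatran libraries (dab).

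Ratios of paired or opposing genes were taken within each library. The exact two-sided permutation test over the 10 splits cannot go below 0.1, and 5 ratios were tested and adjusted for, of which 3 are given. The log2 ratio of Ppp1r3c to Ppp1r3b was 0.85, 1.12 and 1.45 with diet and -0.11 and -2.37 with dabigatran (exact permutation p = 0.1, adjusted p = 0.5) and did not overlap, at the smallest p the design allows. That of Pck1 to the pyruvate kinase gene Pklr, which work in opposite directions between pyruvate and phosphoenolpyruvate, was 3.28, 5.75 and 3.07 with diet and 6.47 and 5.0 with dabigatran (exact permutation p = 0.3, adjusted p = 0.75). That of Gys2 to Pygl was -0.94, 0.44 and -0.79 with diet and -0.66 and -0.39 with dabigatran, so that the groups overlapped (exact permutation p = 1).

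Other genes of gluconeogenesis and of the entry of its precursors, 23 of 30 listed being tested, held none that passed in either direction, and their median log2 difference was -0.05. At an unadjusted p under 0.05, 4 were higher and 4 lower (limma), beside 6.87% and 9.13% of all tested genes. The groups did not overlap in 34.4% of all tested genes. Got1, the cytosolic aspartate aminotransferase gene, had 51.9, 143 and 50.8 FPKM with diet and 257 and 436 with dabigatran, all dabigatran values above all diet values (adjusted p = 0.0784, and 0.00618 without diet replicate 1). Slc37a4, which encodes the transporter that brings glucose-6-phosphate to G6pc, had 35.1, 27.6 and 36.1 FPKM with diet and 49.0 and 138 with dabigatran (adjusted p = 0.165, and 0.0135 without dabigatran replicate 1, with a lone dabigatran library). It therefore did not share the high value of G6pc in diet replicate 1. Gpt2, a mitochondrial alanine aminotransferase gene, had 126 ± 13.7 FPKM (SD, n = 3) and 222 ± 78.0 (SD, n = 2), and Gpd1, for the glycerol-3-phosphate dehydrogenase of the cytosol (13.0% of its exonic bases overlap Gm16537 on the opposite strand), had 187 ± 37.3 and 111 ± 34.5.

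Among genes of glucose uptake and glycolysis, 22 of 29 listed were tested, none passed in either direction and the median was -0.04. By an unadjusted p under 0.05 (limma), 2 were higher and 3 lower, beside 6.87% and 9.13% of all tested genes. Slc2a2, the glucose transporter GLUT2 of the hepatocyte membrane, had 90.2, 49.8 and 74.5 FPKM with diet and 50.8 and 30.5 with dabigatran (adjusted p = 0.251). Pklr, for liver pyruvate kinase, had 35.1, 18.2 and 36.4 FPKM with diet and 12.4 and 22.5 with dabigatran (adjusted p = 0.349), with 22% of its exonic bases overlapping Hcn3 on the opposite strand. In both genes diet replicate 1 fell within the dabigatran range. Pfkfb2, for an enzyme that sets fructose-2,6-bisphosphate, had 5.21 ± 1.56 and 13.5 ± 7.56 FPKM (SD, n = 3 and n = 2), and 15.9% of its 50-base windows also occur in other genes, most often Gm29427. Khk, the fructokinase gene, had 202 ± 41.6 and 130 ± 22.1 FPKM, Pdk1, for a kinase that restrains pyruvate dehydrogenase, 13.3 ± 2.43 and 8.35 ± 0.0598, and the aldolase gene Aldoa 37.3 ± 3.07 and 52.7 ± 4.67.

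Of the other glycogen genes, 21 of 29 listed were tested, with a median of -0.11. At an adjusted p under 0.05 (limma), 1 of them fell and none rose, beside 0.303% and 0.127% of all tested genes. By an unadjusted p under 0.05 (limma), 3 were higher and 4 lower, beside 6.87% and 9.13% of all tested genes. The gene that fell was Ugp2 (ENSMUSG00000001891.16, chromosome 11, 21321138 to 21371201, minus strand), which encodes the pyrophosphorylase that makes UDP-glucose, the substrate of glycogen synthase. Ugp2 had 105, 97.2 and 99.9 FPKM with diet and 46.3 and 49.8 with dabigatran, 2.09-fold higher with diet (log2 difference -1.06 ± 0.16, SE, limma adjusted p = 0.0448). Both groups were tight, and no library approached the other group. The call was lost in 10 of the 14 alternatives, with log2 differences of -1.11 to -1.01 in those 10 and adjusted p from 0.0525 to 0.263, among them leaving out diet replicate 0, diet replicate 2 or either dabigatran library. Gaa, for the acid glucosidase that digests glycogen in lysosomes, had 9.64 ± 1.35 and 19.1 ± 3.72 FPKM (SD, n = 3 and n = 2, limma adjusted p = 0.101). Ppp1ca, for a catalytic subunit of protein phosphatase 1, had 88.7 ± 10.5 and 62.8 ± 2.49 FPKM (limma adjusted p = 0.238). Rad9a and AC109138.6 overlap 16.5% of the exonic bases of Ppp1ca on the opposite strand. Pgm3, whose product serves amino sugar rather than glycogen synthesis, had 7.69 ± 1.22 and 15.1 ± 3.93 FPKM, with 28.3% of its exonic bases overlapping Dop1a on the opposite strand. The other targeting subunit genes, named after their values were seen, were at 0.897 FPKM or less in every library for Ppp1r3a, Ppp1r3d, Ppp1r3f and Ppp1r3g and at 0.311 to 2.24 FPKM for Ppp1r3e.

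**Figure D3:**
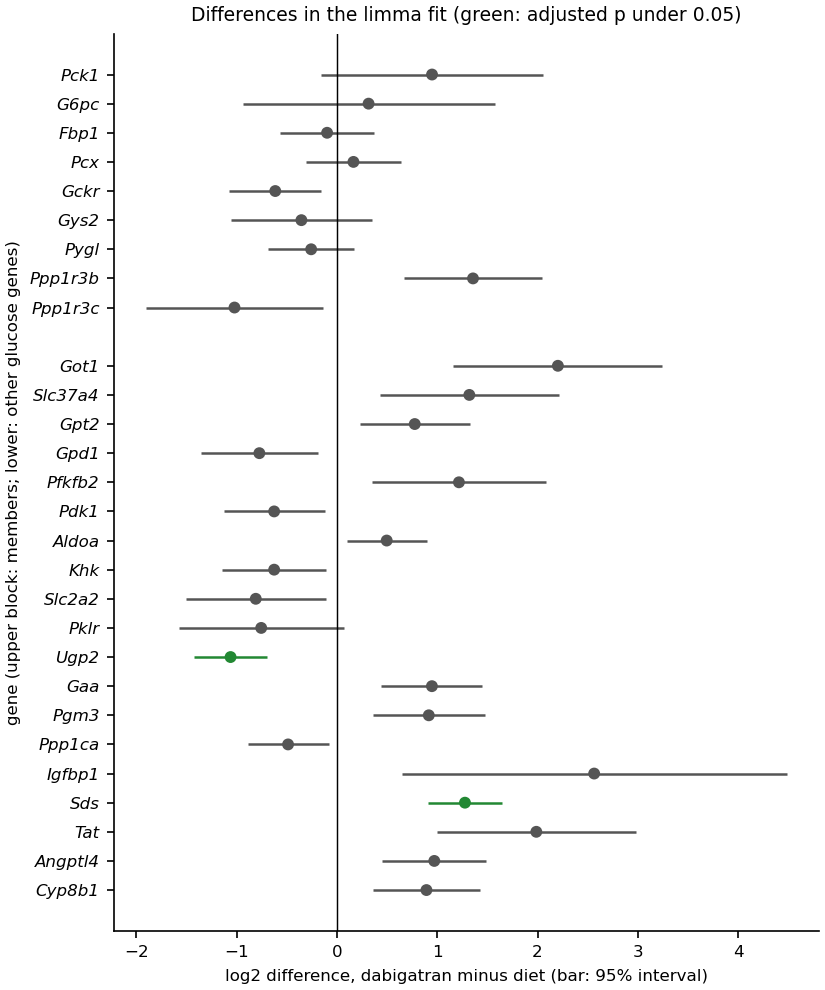
Log2 difference between dabigatran and diet in the limma fit (horizontal axis) for the 9 genes and 19 other genes named in the text, with 95% intervals as bars. Only Ugp2 (-1.06) and Sds (1.28) are past an adjusted p of 0.05 (green), and the bars of Pck1, G6pc, Fbp1, Pcx, Gys2 and Pygl cross 0.

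Regulators of glucose production, 43 of 44 listed being tested, held none that passed in either direction, with a median of 0.24. By an unadjusted p under 0.05 (limma), 6 were higher and 2 lower, beside 6.87% and 9.13% of all tested genes. The groups did not overlap in 34.4% of all tested genes. Crtc2, a coactivator that carries the glucagon signal to CREB, had 6.03, 5.78 and 7.92 FPKM with diet and 13.5 and 15.0 with dabigatran, without overlap (adjusted p = 0.0784). Foxo1, a forkhead factor restrained by insulin, had 4.67 ± 0.364 and 8.27 ± 3.30 FPKM (SD, n = 3 and n = 2, adjusted p = 0.266), and the coactivator gene Ppargc1a 0.945, 2.48 and 1.43 FPKM with diet and 1.98 and 1.88 with dabigatran (adjusted p = 0.778). The clock genes Per1 (0.444 to 2.45 FPKM with diet, 6.63 and 9.90 with dabigatran) and Dbp (4.59 to 12.1, and 1.25 and 1.74) also did not overlap, and Nr1d1 had 19.1 to 26.3 and 13.3 and 16.3 (adjusted p = 0.0716, 0.0674 and 0.212). Reads of Dbp and Nr1d1 may not be separable from Sphk2 and Thra, which overlap 18.0% and 8.55% of their exonic bases on the opposite strand.

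Fasting and glucagon response genes had a median log2 difference of 0.89 over the 11 tested of 12 listed. At an adjusted p under 0.05 (limma), 1 of them rose and none fell, beside 0.127% and 0.303% of all tested genes. By an unadjusted p under 0.05 (limma), 7 were higher and none lower, beside 6.87% and 9.13% of all tested genes. The list was written with earlier results of these data in view, and Sds was known then to be called, so its direction is not independent evidence. Sds, for serine dehydratase, which turns serine into pyruvate, rose 2.42-fold (adjusted p = 0.0404), with 62.7 ± 4.06 FPKM in the diet group (SD, n = 3) and 152 ± 6.21 in the dabigatran group (SD, n = 2), with 29.6% of its exonic bases overlapping Plbd2 and Gm15690 on the opposite strand. The Sds call was lost in 6 of the 14 alternatives, with adjusted p of 0.204 without diet replicate 0, 0.202 without diet replicate 2 and 0.194 without dabigatran replicate 2, while its log2 difference stayed between 1.22 and 1.32 in all 14. Tat, a glucocorticoid-induced tyrosine aminotransferase gene, had 110, 352 and 163 FPKM with diet and 628 and 857 with dabigatran (adjusted p = 0.0869, and 0.00733 without diet replicate 1). Igfbp1, with the values given above, had a log2 difference of 2.56 ± 0.83 (SE, adjusted p = 0.203), which was 3.56 without diet replicate 1 (adjusted p = 0.00603) and 1.93 without diet replicate 0 (adjusted p = 0.457). The lipase inhibitor gene Angptl4 had 35.3 ± 4.02 and 70.9 ± 21.6 FPKM, and the bile acid gene Cyp8b1 253 ± 62.7 and 464 ± 69.8. Igfbp1 and Tat were, like Pck1 and G6pc, higher in diet replicate 1 than in the other diet libraries.

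Genes whose values ran closest to those of the 3 members with the largest fitted differences were found by root-mean-square distance of log2 values, centred on diet, over the 5 libraries. For Ppp1r3b they were Prhoxnb (named Urad in RefSeq) at 0.10, the cytochrome P450 reductase gene Por at 0.13 and the urea cycle gene Arg1 at 0.13. For Ppp1r3c they were Tm4sf1 at 0.13, the small GTPase gene Rab13 at 0.13 and Gas6, for a secreted ligand of receptor tyrosine kinases, at 0.17. For Pck1 they were Irs2, an insulin receptor substrate gene, at 0.19, the calcineurin subunit gene Ppp3cc at 0.20 and the sterol enzyme gene Hsd17b7 at 0.21. None of these 9 genes passed over all genes (limma adjusted p from 0.0591 to 0.345), and nearness over 5 libraries is a description only.

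**Figure D4:**
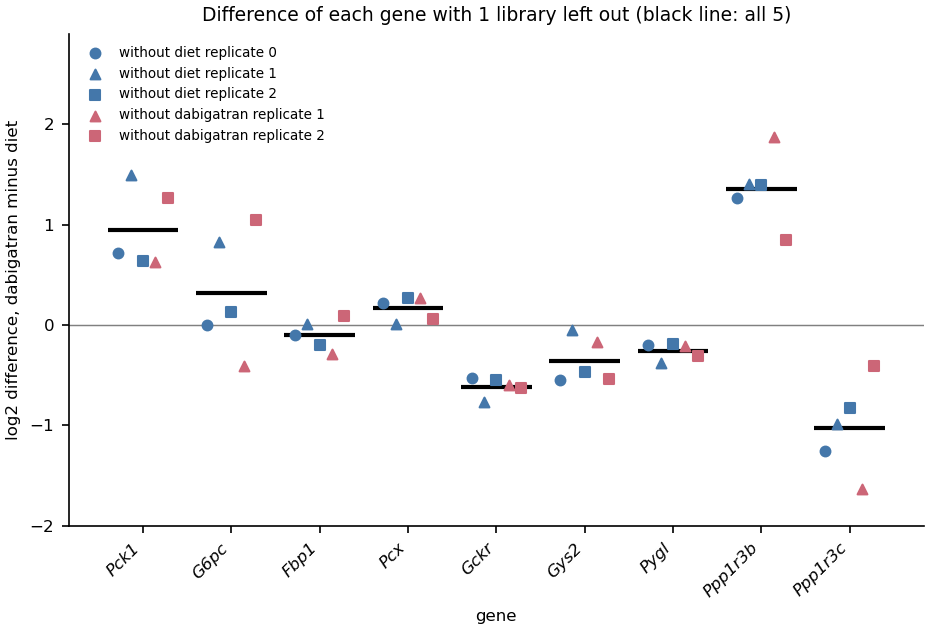
Log2 difference between dabigatran and diet (vertical axis) of each of the 9 genes with all 5 libraries (black line) and with 1 library left out (symbols, blue for diet and red for dabigatran). G6pc moves between -0.41 and 1.04, Ppp1r3b stays between 0.84 and 1.87, Gckr between -0.77 and -0.53, and Ppp1r3c between -1.63 and -0.41.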

How the data were processed

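The deposited unit is FPKM, computed by the authors, per the file headers. Per the submitters' processing notes, the software included R 2.15.1, Cuffdiff, TopHat2 2.0.4, TopHat and CASAVA, in no stated role, and the builds were mm10 and GRCm38. Annotation, strand use and treatment of shared reads: not given in the sources used here. Members and lists were chosen with earlier results of these data known. Testing was limited to the 10247 genes, all 9 members included, that reached 1 FPKM in 3 or more of the 5 distinct libraries. limma 3.58.1 in R 4.3.3 (lmFit, eBayes with a variance trend) compared the groups on log2(FPKM + 0.5), two-sided, with Benjamini-Hochberg adjustment over all tested genes and a threshold of 0.05. Fold changes are on that scale and understate low genes. Tested on simulated data (3 against 2 libraries, 10247 genes), the recovered share was 19.4% for 2-fold changes, 68.7% for 4-fold ones and 95.5% for 16-fold ones. Whole fragments were the smallest whole numbers, up to 1500, matching the FPKM ratios within a relative 2e-05; 78.8% of tested genes gave them, and 0 of 1000 shifted genes did. They cover counting error only. Positions and overlaps are from GENCODE M21 (GRCm38). Named besides the members were genes of each list past the threshold and, up to 4, the next by p, plus Pklr, Slc2a2, Slc37a4, Ppargc1a, Foxo1 and Igfbp1, and 3 nearest genes for each of 3 members; 1 further gene is not reported here. There were 14 alternatives, of which the replicate block and leaving out diet replicate 0 share their log2 differences.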

Additional observations from a re-analysis of the deposited data

How the results depend on the processing

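Among the 9 genes, Pck1, Pcx, Gckr, Gys2, Pygl, Ppp1r3b and Ppp1r3c kept the sign of their difference in every alternative that could fit them (13 for Pck1 and Pcx, which the voom fit on whole fragments left out, and 14 for the others). No member passed the threshold except Pck1 without diet replicate 1 and Ppp1r3b without dabigatran replicate 1. The sign turned for G6pc (log2 difference -0.0053 both with a replicate block and without diet replicate 0, and -0.41 without dabigatran replicate 1, against 1.04 without dabigatran replicate 2) and Fbp1 (0.0045 without diet replicate 1, 0.092 without dabigatran replicate 2). The replicate block and leaving out diet replicate 0 give the same log2 difference by design, since that library has no dabigatran partner. They differ only in the spread and p-value. The median of the members was -0.29 with voom, where 7 were fitted, and ranged from -0.21 to 0.057 with 1 library left out. Over all genes, 13 were called higher and 31 lower. The counts were 6 and 17 with a pseudocount of 0.1, 0 and 0 without a filter on low values, 0 and 0 without a variance trend, 8 and 8 with voom, 5 and 8 with the replicate block, 8 higher with at least 5 FPKM, 16 lower after quantile normalization, and 0 to 95 higher and 0 to 199 lower with 1 library left out (95 and 199 without diet replicate 1, 94 and 181 without dabigatran replicate 1, 0 and 1 without diet replicate 0, and 0 and 0 without diet replicate 2 or dabigatran replicate 2). At an unadjusted p under 0.05, 816 and 1117 genes without the filter and 692 and 870 without the trend were higher and lower, as were 442 and 620 without diet replicate 0, 496 and 611 without diet replicate 2, and 340 and 670 without dabigatran replicate 2. With 1 library left out, members called higher ranged from 0 to 1, gluconeogenesis genes from 0 to 2 higher and 0 to 1 lower, glycolysis genes from 0 to 2 higher, regulators from 0 to 1 in each direction, glycogen genes from 0 to 2 lower, and fasting genes from 0 to 4 higher. Ugp2, the glycogen gene called lower, was lost (0 called) with a pseudocount of 0.1, without a filter, with quantile normalization, without a trend, with voom and with the replicate block. Sds, the fasting gene called higher, was lost (0 called) without a filter, without a trend and with the replicate block, and also when replicate 0 or 2 of the diet group or replicate 2 of the dabigatran group was left out. Leaving out diet replicate 1 brought Igfbp1, Got1, Tat, Cyp8b1, Per1 and Dbp past the threshold (adjusted p = 0.00603, 0.00618, 0.00733, 0.0257, 0.00788 and 0.00773), and leaving out dabigatran replicate 1, with a lone library, Slc37a4, Gpt2, Pfkfb2 and Angptl4 (0.0135, 0.0483, 0.0494 and 0.0398). Replicate numbers pair 2 libraries of each group, whose deviations correlated at -0.045 and -0.025 across genes. The deviations of 2 dabigatran libraries from their mean mirror each other, so these values cannot decide whether a number marks a shared batch. The cause of these changes was not tested. Depth limits Ppp1r3c most, at 41 fragments in dabigatran replicate 2.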
